A study of Rattus norvegicus with 16 samples.

Results

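The genes described here are 5 components of the cholesterol-sensing machinery of the liver cell: the sterol sensors Insig1 and Insig2, the escort protein gene Scap, the transcription factor gene Srebf2 and the sterol carrier gene Stard4. They are taken by name, and no difference between groups enters the rule. The 5 genes were, however, chosen with earlier results of these data known, so their share of calls is a description. Each is represented by the probe set, among those annotated with its symbol alone, that had the highest mean over all arrays. The 5 genes had 10 such probe sets, and the array named 13438 genes in all, of which 11434 were tested, these 5 included. The study asked how molecular hydrogen and a steatosis-inducing diet change gene expression in rat liver. Liver RNA of 16 male F344 rats was hybridised to Affymetrix RG-230 PM arrays, with 1 array per rat and 4 rats per group. The rats were 4 weeks old at the start and were reared for 3 weeks. The CDAA diet lacks choline and supplies its protein as defined L-amino acids. Hydrogen-treated CDAA rats ate it, drank water carrying 0.7 mM hydrogen and breathed air to which 2% hydrogen had been added. Control CDAA rats ate it, drank water from which the hydrogen had been stirred out and breathed plain air. Hydrogen-treated normal-diet rats and control normal-diet rats had these regimes of water and air with standard chow. Choline deficiency in young rats is a dietary model of fatty liver, and hydrogen was given by water and air together, so the routes cannot be told apart.

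SREBP2, the product of Srebf2, is made as a precursor in the membrane of the endoplasmic reticulum, bound to SCAP. When membrane sterols are low, SCAP carries the precursor to the Golgi, where proteases release its active part, which then switches on cholesterol synthesis and uptake genes. When sterols are plentiful, INSIG1 and INSIG2 hold SCAP in the endoplasmic reticulum and also promote the degradation of HMG-CoA reductase. Insig1 and Stard4 are themselves targets of SREBP2, so their mRNA is commonly read as an output of the pathway. Insig2 is not a typical SREBP target: in mouse liver its main transcript is lowered by insulin, and the clock repressor REV-ERBα acts on it.

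Windows at the annotated starts of the INSIG pair are shown because the pair makes related proteins under different control. The windows differ in composition. Each window runs from 250 bases before to 50 bases after the annotated start (RefSeq, GRCr8), is printed 5′ to 3′ on the gene's strand, and has every match to the searched motifs in capitals. Of the 5 genes, 4 matched an entry of the promoter table (Insig1, Insig2, Srebf2 and Scap). The Insig1 window lies at chr4:8057720-8058019 on the minus strand, and the Insig2 window at chr13:35040049-35040348 on the minus strand.
Insig1: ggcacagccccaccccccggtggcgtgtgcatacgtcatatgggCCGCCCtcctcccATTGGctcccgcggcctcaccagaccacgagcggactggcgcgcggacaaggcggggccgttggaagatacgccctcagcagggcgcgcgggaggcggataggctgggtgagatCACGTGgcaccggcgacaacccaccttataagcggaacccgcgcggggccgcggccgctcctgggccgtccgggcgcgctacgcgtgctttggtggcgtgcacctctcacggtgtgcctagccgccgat
Insig2: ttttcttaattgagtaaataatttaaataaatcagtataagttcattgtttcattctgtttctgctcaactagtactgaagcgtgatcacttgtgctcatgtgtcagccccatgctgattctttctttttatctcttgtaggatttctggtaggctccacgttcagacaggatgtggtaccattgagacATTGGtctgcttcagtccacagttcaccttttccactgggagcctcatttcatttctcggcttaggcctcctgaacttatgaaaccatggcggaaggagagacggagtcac
G and C made up 71.3% of the Insig1 window and 42% of the Insig2 window. The motifs searched, on both strands, were the sterol regulatory element core TCACNCCAC, the NF-Y box CCAAT, the E-box CACGTG, the Sp1 box GGGCGG and the ROR and REV-ERB element NTAGGTCA. These letters occurred in 1.12%, 37.5%, 6.42%, 33.1% and 2.62% of the 33469 rat promoters of the same length, in that order. In Insig1 the capitals mark an Sp1 box (CCGCCC, at −206), an NF-Y box (ATTGG, at −193) and an E-box (at −79). In Insig2 they mark an NF-Y box alone, at −61. Neither window holds the sterol element core or the REV-ERB element. The Insig2 start used here lies inside the annotated gene (chr13:35025160-35052937), whose other starts were not searched. Differences between the windows are therefore not shown to be differences between the promoters of the INSIG pair. These matches describe letters in a window, not bound sites.

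All 5 genes lay above the detection line on all 16 arrays, so none of them was tested only through its higher group. That line, the 30th percentile of all values, was 3.68 on the log2 scale of the deposited values, where a difference of 1 is a 2-fold change. The first principal component, 66% of the variance, separated the diets. Control normal-diet replicate 4 lay apart from its group on it, at −13.44 against −32.28, −35.09 and −32.45. Without that array, each of the 5 genes kept its call or lack of a call in every comparison. The mean log2 signal of 8 hepatocyte markers was nearly level, at 12.66 to 12.72 on every array. Single markers were not all level: on the CDAA diet 2 of the 8 were called higher and 2 lower in each regime. The level mean therefore does not show that the share of hepatocytes was unchanged. Macrophage markers (10 genes) averaged 8.44 to 8.95 in hydrogen-treated CDAA livers, 8.24 to 8.71 in control CDAA livers, 7.57 to 7.90 in hydrogen-treated normal-diet livers and 7.21 to 8.19 in control normal-diet livers. On the CDAA diet 8 of these 10 were called higher in hydrogen-treated rats, against 32.1% of all genes. In control rats 7 were called higher, against 27.3% of all genes, and the Kupffer cell marker Clec4f was called 1.53-fold lower (limma adjusted p = 0.00892). After a further quantile normalization 7 were higher in hydrogen-treated rats, and 4 were higher and 1 lower in control rats. Of 9 stellate cell markers 8 were higher in hydrogen-treated and 6 in control rats, and of 6 bile duct markers 4 and 3, with Sox9 below detection throughout. Hydrogen against control called none of these markers on either diet. The part of these cells in the diet results was not tested. In whole liver, fewer cells of a type and less RNA per cell cannot be told apart.

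Insig2 was lower with hydrogen in livers of rats on the CDAA diet. Against the normal diet, the CDAA diet went with lower Stard4 in both water and air regimes and lower Insig1 and Insig2 under hydrogen. Srebf2 was called slightly higher in both regimes, but neither call held after a further quantile normalization (limma adjusted p = 0.492 in hydrogen-treated and 0.0597 in control rats). Scap passed the test in no comparison. In limma's test across 22634 probe sets, with Benjamini-Hochberg adjustment and a threshold of 0.05, hydrogen against control on the CDAA diet called 1 of the 5 genes, lower, where 0.184% of all genes tested were called lower and 0.376% in either direction. Hydrogen against control on the normal diet called 0 of the 5, against 0.00875% of all genes, and Stard4 alone had an unadjusted p under 0.05. The CDAA against the normal diet called 3 lower and 1 higher of the 5 in hydrogen-treated rats, against 17.3% lower and 32.1% higher of all genes. In control rats it called 1 lower and 1 higher, against 13.3% lower and 27.3% higher. With 49.5% and 40.6% of all genes called for the diet, the diet counts alone do not set these 5 genes apart. The balance of higher and lower diet calls depended on scaling. In control rats 4760 probe sets were higher and 3267 lower as deposited, 3946 and 3825 after a further quantile normalization, and 3686 and 5274 after centring each array on its median. In hydrogen-treated rats these counts were 5778 and 4371, 4558 and 5007, and 4220 and 8167.

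**Figure D1:**
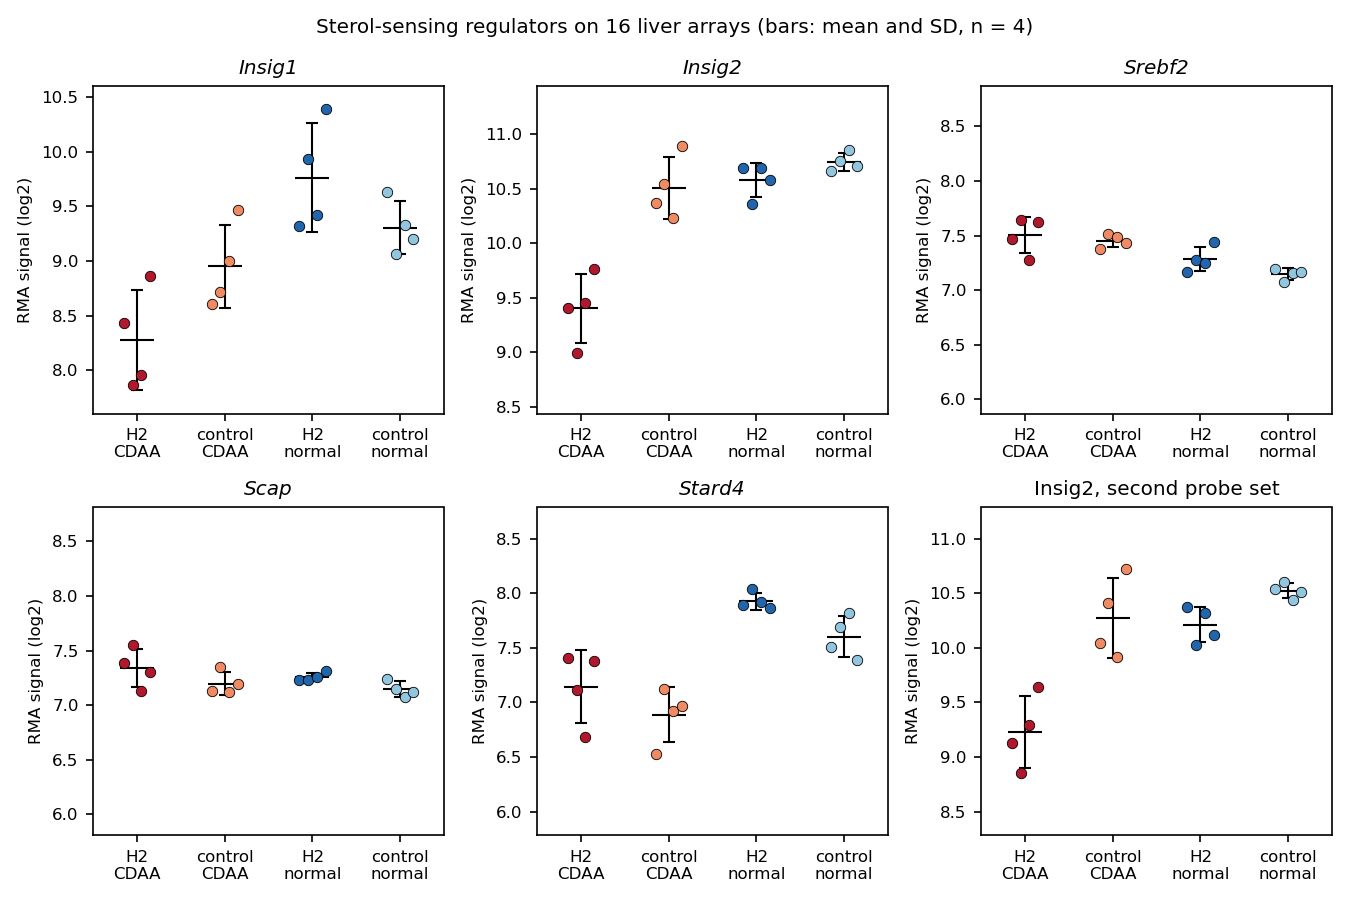
Signal (log2) of Insig1, Insig2, Srebf2, Scap and Stard4, and of the second Insig2 probe set, on each of the 16 arrays, by group. Each point is a rat, bars give the mean and SD (n = 4), and every panel spans the same 3 log2 units; for both Insig2 probe sets the hydrogen-treated CDAA livers lie below all other arrays.

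Insig2, the INSIG form with a liver-specific transcript in mouse, set the hydrogen-treated CDAA livers apart from all others. Its log2 signal was 9.41, 8.99, 9.45 and 9.76 in hydrogen-treated CDAA livers and 10.37, 10.54, 10.23 and 10.89 in control CDAA livers. It was 10.69, 10.36, 10.69 and 10.58 in hydrogen-treated normal-diet livers and 10.66, 10.75, 10.85 and 10.71 in control normal-diet livers. All 4 hydrogen-treated CDAA livers lay below every one of the other 12, while the remaining groups overlapped one another. On the CDAA diet Insig2 was 2.15-fold lower with hydrogen (log2 change −1.10 ± 0.146 SE, 95% interval −1.42 to −0.79, n = 4 per group, limma adjusted p = 0.00259). Such a separation of the groups, downwards, was seen in 1.51% of all genes tested in this comparison. The call held when any of the 16 arrays was left out (log2 change −1.22 to −0.97, limma adjusted p 0.00252 to 0.0109). When the model was fitted to the 8 CDAA arrays alone, the change was the same but the limma adjusted p was 0.185.

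The second Insig2 probe set moved in the same direction. It read 9.13, 8.85, 9.29 and 9.64 in hydrogen-treated CDAA livers, against 10.04, 10.41, 9.92 and 10.72 in control CDAA livers. The groups again did not overlap, and the change was −1.04 ± 0.164 (limma adjusted p = 0.0112). Within groups the 2 probe sets followed each other closely, with a Pearson r of 0.932 over the 16 arrays after removal of the group means.

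On the normal diet Insig2 did not change detectably with hydrogen. The difference was −0.16 ± 0.146, with a 95% interval from −0.47 to 0.15 (limma adjusted p = 0.863). The second probe set gave −0.31 ± 0.164 (limma adjusted p = 0.706), with all treated livers below all controls, as in 3.26% of genes. The effect of hydrogen on the CDAA diet minus that on the normal diet was −0.94 ± 0.207 for Insig2. Its unadjusted limma p was 0.000322 and its adjusted p 0.205, so that a difference between the diets was not established over all genes. No gene among the 11434 passed this interaction test, which called 1 of 22634 probe sets, 0.00442%. Read across the diet instead, Insig2 was 2.26-fold lower in hydrogen-treated CDAA livers than in hydrogen-treated normal-diet livers (−1.18 ± 0.146, limma adjusted p = 1.46e-05). In control rats the diet difference was −0.23 ± 0.146 and was not called (limma adjusted p = 0.231). These comparisons share groups, and the diet comparison under hydrogen uses the same low arrays as the hydrogen comparison on the CDAA diet.

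Insig1, the SREBP2-responsive sensor, varied more between rats of a group than Insig2. It read 8.43, 7.86, 7.96 and 8.86 in hydrogen-treated CDAA livers and 8.61, 8.72, 9.00 and 9.47 in control CDAA livers. It read 9.32, 9.93, 9.42 and 10.39 in hydrogen-treated normal-diet livers and 9.63, 9.06, 9.33 and 9.20 in control normal-diet livers. The hydrogen-treated CDAA group had the lowest mean (8.28 ± 0.461 SD) and the hydrogen-treated normal-diet group the highest (9.77 ± 0.495 SD), with control CDAA (8.95 ± 0.384) and control normal-diet livers (9.30 ± 0.243) between them. Of the 4 comparisons tested, the call fell on that between the ends of this order. Insig1 was 2.8-fold lower on the CDAA diet in hydrogen-treated rats (−1.49 ± 0.252, limma adjusted p = 0.00022). The groups did not overlap, as in 15% of all genes downwards in this comparison. In control rats the diet difference of −0.36 ± 0.252 was not called (limma adjusted p = 0.297, 95% interval −0.89 to 0.18).

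Hydrogen against control gave Insig1 changes of opposite sign on the 2 diets, neither of which passed the test. On the CDAA diet the change was −0.67 ± 0.252, and 3 of 4 treated livers lay below the lowest control. Its unadjusted limma p was 0.0169 and its adjusted p 0.305. On the normal diet the change was 0.46 ± 0.252 (limma adjusted p = 0.726), with 2 of 4 treated livers above the highest control. The difference between the diets was −1.13 ± 0.357, with an unadjusted limma p of 0.0059 and an adjusted p of 0.374. The array carries 1 probe set named for Insig1 alone, so no second set of probes was at hand for these values.

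**Figure D2:**
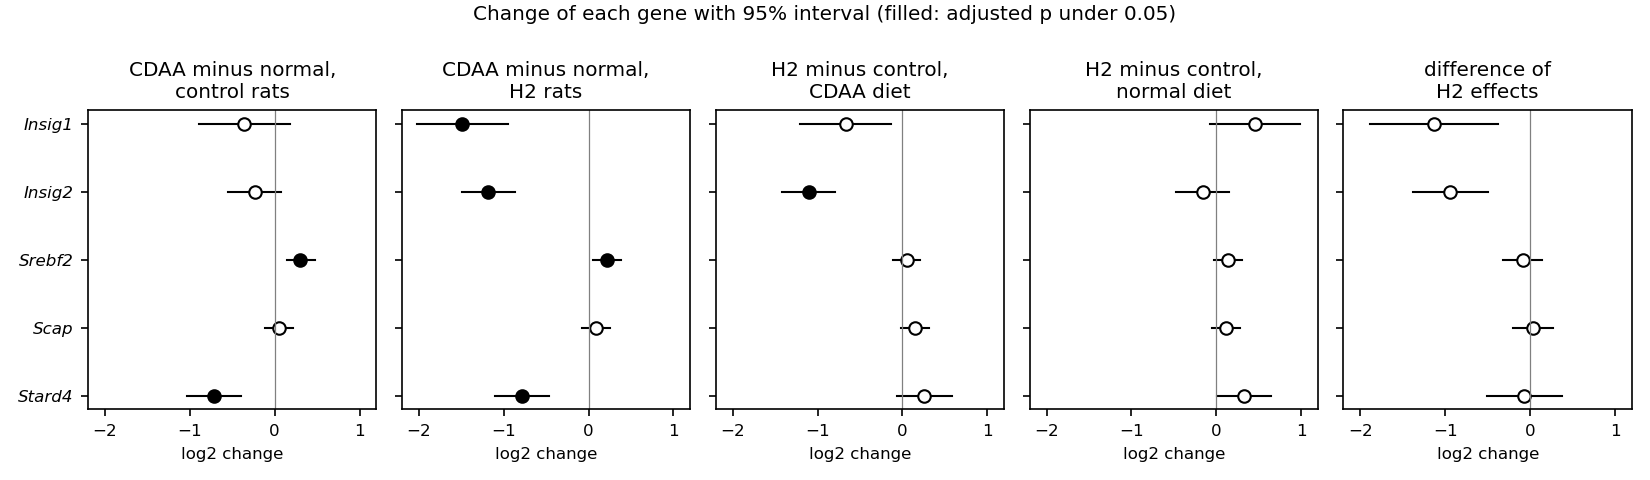
Log2 change of each gene (points) with its 95% interval (lines) in the 4 group comparisons and for the hydrogen effect on the CDAA diet minus that on the normal diet. Filled points have a limma adjusted p under 0.05; hydrogen against control shows 1 filled point, Insig2 on the CDAA diet (−1.10), and the diet comparisons show 4 in hydrogen-treated and 2 in control rats.

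Whether Insig1 and Insig2 changed by different amounts was tested on their difference within each array, since levels of different probe sets cannot be set against each other. Insig1 minus Insig2 was −0.98, −1.13, −1.49 and −0.90 in hydrogen-treated CDAA livers and −1.76, −1.82, −1.23 and −1.42 in control CDAA livers. It was −1.37, −0.43, −1.27 and −0.19 in hydrogen-treated normal-diet livers and −1.03, −1.69, −1.52 and −1.51 in control normal-diet livers. The groups overlapped in every comparison. On the CDAA diet hydrogen moved the difference by 0.43, Insig2 having the larger decrease (exact two-sided permutation p = 0.0857, adjusted p = 0.357 over 5 comparisons). On the normal diet it moved by 0.62, with opposite signs of the single-gene changes (exact p = 0.143, adjusted p = 0.357). The diet moved it by −0.31 in hydrogen-treated rats (exact p = 0.4) and by −0.12 in control rats (exact p = 0.571), and the hydrogen effects differed between the diets by −0.19 (exact p = 0.686). With 4 rats against 4 the smallest exact p is 0.0286, and none of the 5 comparisons showed that the genes changed unequally. Within groups the deviations of Insig1 and Insig2 had a Pearson r of 0.396 over the 16 arrays, which share the RNA and the array.

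**Figure D3:**
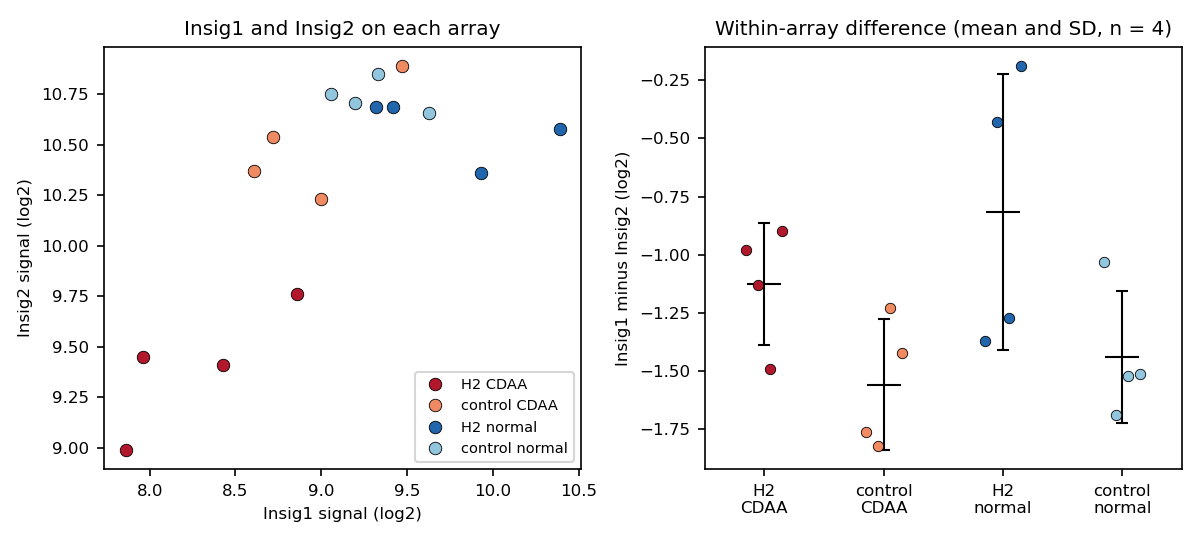
Left, Insig2 against Insig1 signal (log2) on each of the 16 arrays, coloured by group; right, Insig1 minus Insig2 on each array with the group mean and SD (n = 4). The hydrogen-treated CDAA livers sit lowest on the Insig2 axis, and the within-array difference overlaps between all groups, with means of −1.12, −1.56, −0.81 and −1.44 from left to right.

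Srebf2, which encodes the transcription factor itself, moved little and in the direction opposite to Insig1 under the diet. It read 7.47, 7.64, 7.28 and 7.62 in hydrogen-treated CDAA livers and 7.38, 7.51, 7.49 and 7.43 in control CDAA livers. It read 7.17, 7.28, 7.25 and 7.44 in hydrogen-treated normal-diet livers and 7.19, 7.07, 7.16 and 7.17 in control normal-diet livers. In control rats every CDAA liver was above every normal-diet liver. The diet raised Srebf2 1.24-fold in control rats (0.30 ± 0.0771, limma adjusted p = 0.00573), and such an upward separation occurred in 24.7% of all genes. In hydrogen-treated rats the groups overlapped and the rise was 1.16-fold (0.22 ± 0.0771, limma adjusted p = 0.0309). Both calls depended on scaling. After a further quantile normalization the rises were 0.20 (limma adjusted p = 0.0597) in control and 0.07 (limma adjusted p = 0.492) in hydrogen-treated rats, and centring arrays on their medians left 0.12 (limma adjusted p = 0.226) in hydrogen-treated rats. In hydrogen-treated rats the call also ended without hydrogen-treated CDAA replicate 2 (0.17) or 4 (0.18), or without hydrogen-treated normal-diet replicate 1 (0.18), 2 (0.22) or 3 (0.21). Hydrogen against control gave 0.05 on the CDAA diet (limma adjusted p = 0.856) and 0.14 on the normal diet (limma adjusted p = 0.731). A second Srebf2 probe set stayed under the detection line on all 16 arrays and was not tested.

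Scap, the escort that INSIG proteins retain, was the steadiest of the 5. It read 7.39, 7.55, 7.13 and 7.30 in hydrogen-treated CDAA livers and 7.13, 7.35, 7.12 and 7.19 in control CDAA livers. It read 7.23, 7.23, 7.26 and 7.31 in hydrogen-treated normal-diet livers and 7.24, 7.15, 7.07 and 7.12 in control normal-diet livers. The groups overlapped in all 4 comparisons, and all 16 arrays fell within 0.48 log2 units. The largest difference, hydrogen against control on the CDAA diet, was 0.15 (95% interval −0.02 to 0.31, limma adjusted p = 0.5). The diet differences were 0.09 (−0.08 to 0.25) in hydrogen-treated and 0.05 (−0.11 to 0.22) in control rats, and their sign turned under both other scalings. Changes in Scap mRNA beyond these intervals were thus not seen, while smaller ones could not be resolved with 4 rats per group. The second Scap probe set lay near the detection line, at 3.81 to 4.37, and did not follow the first within groups (r = −0.0349 over 16 arrays).

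Stard4, a soluble START-domain protein that moves cholesterol between membranes, was lower on the CDAA diet in both regimes. It read 7.41, 7.11, 6.68 and 7.38 in hydrogen-treated CDAA livers and 6.53, 7.12, 6.92 and 6.97 in control CDAA livers. It read 7.89, 8.04, 7.92 and 7.86 in hydrogen-treated normal-diet livers and 7.51, 7.69, 7.82 and 7.39 in control normal-diet livers. Diet separated the arrays in both regimes without overlap, as it did downwards in 15% of all genes in hydrogen-treated and 13.3% in control rats. Stard4 was 1.72-fold lower on the CDAA diet in hydrogen-treated rats (−0.78 ± 0.149, limma adjusted p = 0.000565) and 1.64-fold lower in control rats (−0.72 ± 0.149, limma adjusted p = 0.00146). The 2 diet effects differed by −0.07 ± 0.21 (95% interval −0.51 to 0.38, limma adjusted p = 0.953).

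Hydrogen did not change Stard4 past the threshold on either diet. On the normal diet all 4 treated livers lay above all controls, as in 2.43% of genes, and the difference was 0.33 ± 0.149. In limma's test its unadjusted p was 0.0442 and its adjusted p 0.657. On the CDAA diet it was 0.26 ± 0.149 (limma adjusted p = 0.528). Stard4 had 2 further probe sets. The second was also lower on the CDAA diet, by −0.78 in hydrogen-treated rats (limma adjusted p = 2.76e-05) and −0.40 in control rats (limma adjusted p = 0.00624). Between hydrogen-treated and control CDAA livers it gave −0.21 (limma adjusted p = 0.457), opposite in sign to the probe set used for the gene. The dimmest set, at 4.60 to 5.17, gave −0.32 (limma adjusted p = 0.006) in hydrogen-treated and −0.17 (limma adjusted p = 0.13) in control rats.

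The set of partners that process SREBP precursors or degrade sterol-regulated proteins was read beside these genes. Of 14 such genes tested, 6 were higher and 2 lower on the CDAA diet in each regime, with list medians of 0.02 in hydrogen-treated and 0.07 in control rats against 0.05 and 0.04 over all genes. Of all genes, 32.1% were higher and 17.3% lower in hydrogen-treated rats, and 27.3% and 13.3% in control rats. After a further quantile normalization 4 were higher and 3 lower in hydrogen-treated rats and 4 higher and 1 lower in control rats. After centring the counts were 5 and 4 in hydrogen-treated and 4 and 3 in control rats. Erlin2, an endoplasmic reticulum protein that works with the INSIG-bound ligases, was 1.54-fold higher in hydrogen-treated and 1.39-fold higher in control rats (limma adjusted p = 2.44e-05 and 0.000353). Rnf145, an INSIG-binding ubiquitin ligase gene, was 1.67-fold higher in hydrogen-treated and 1.38-fold higher in control rats (limma adjusted p = 0.00018 and 0.00736). Srebf1, which encodes the sister factor SREBP1, fell where Srebf2 did not, by 1.82-fold in hydrogen-treated and 1.47-fold in control rats (limma adjusted p = 6.29e-05 and 0.0031). Hydrogen against control called none of the 14 on either diet.

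SREBP2 target genes, the readout of the pathway, were mostly not called in control rats and mostly lower on the CDAA diet in hydrogen-treated rats. Of 19 tested targets (Insig1 and Stard4 not counted), 11 were lower and 2 higher in hydrogen-treated rats (median −0.35), against 17.3% lower and 32.1% higher of all genes. In control rats 6 were lower and 1 higher (median 0.02), against 13.3% lower and 27.3% higher of all genes. Tm7sf2, a sterol reductase gene, was 3.23-fold lower in hydrogen-treated and 2.78-fold lower in control rats (limma adjusted p = 1.62e-05 and 8.53e-05). Sqle, the squalene epoxidase gene, was 1.65-fold higher in hydrogen-treated and 1.85-fold higher in control rats (limma adjusted p = 0.00257 and 0.000718), against the direction of Tm7sf2 in the same livers. Hydrogen against control called 0 of 19 on either diet, with medians of −0.08 on the CDAA diet and 0.18 on the normal diet against 0.01 and −0.01 over all genes. The difference between the hydrogen effects was negative in 18 of 19 targets (median −0.22, against 0.01 over all genes), and none passed the test. It was also negative in all 14 genes tested of the SREBP1c and fatty acid synthesis list (median −0.33) and in each of the 5 sterol-sensing genes except Scap. Of these 5, Srebf2 (−0.09 ± 0.109) and Stard4 (−0.07 ± 0.21) had differences smaller than their standard errors. The share of negative differences over all genes was not counted, and genes on the same arrays do not vary independently.

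The neighbouring programmes gave the following counts on the CDAA diet, to be read against 17.3% lower and 32.1% higher of all genes in hydrogen-treated rats and 13.3% lower and 27.3% higher in control rats. Of 14 genes on a list of SREBP1c and fatty acid synthesis, 9 were lower on the CDAA diet in hydrogen-treated rats. In control rats 5 were lower and 1 higher. The 14 include Srebf1, already counted among the SREBP partners, and Mlxipl, the gene of a carbohydrate-responsive factor. Both were called lower in both regimes. Hydrogen on the CDAA diet called 1 of these 14, Fasn, the fatty acid synthase gene, which was 2.32-fold lower (limma adjusted p = 0.03). Of 13 oxysterol- and LXR-responsive genes, 5 were higher and 2 lower on the CDAA diet in hydrogen-treated rats, and 4 were higher and 3 lower in control rats. The sterol exporter gene Abcg1 was 2.59-fold and 1.83-fold higher on the CDAA diet in hydrogen-treated and control rats (limma adjusted p = 4.04e-06 and 0.000304). Abcg5, of the same list, was 1.56-fold and 2.26-fold lower (limma adjusted p = 0.019 and 0.000389). Abca1 was 1.13-fold higher in hydrogen-treated and 1.13-fold lower in control rats (limma adjusted p = 0.0363 and 0.0466). Of 17 START-domain and sterol transport genes other than Stard4, 3 were higher and 5 lower in hydrogen-treated rats, and 1 was higher and 3 lower in control rats. After centring arrays on their medians, 1 was higher and 8 lower in hydrogen-treated rats and 0 higher and 5 lower in control rats. Among 8 insulin- and fasting-responsive genes, 2 were higher and 2 lower in each regime. Igfbp1, a gene that insulin represses, was 4.06-fold and 3.34-fold higher in hydrogen-treated and control rats (limma adjusted p = 0.000288 and 0.00125). G6pc1, of the same list, went the other way, 2.05-fold and 1.78-fold lower (limma adjusted p = 0.00142 and 0.00777). Pdk4 was 1.59-fold lower in hydrogen-treated and 1.56-fold higher in control rats (limma adjusted p = 0.0144 and 0.0217). Hydrogen against control called none of these 8 on either diet.

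Clock genes changed in the comparison in which Insig2 fell. Their list, like the others, was chosen with earlier results of these data known, so its share of calls is a description only. Of 14 clock genes tested, 4 were higher and 4 lower with hydrogen on the CDAA diet, against 0.192% and 0.184% of all genes. After a further quantile normalization these counts were 4 and 2. Dbp, a clock output factor, read 8.52, 8.42, 7.77 and 7.85 in hydrogen-treated CDAA livers, against 5.06, 6.63, 5.89 and 5.24 in control CDAA livers. It was 5.41-fold higher with hydrogen (2.44 ± 0.301, limma adjusted p = 0.00183), and Bmal1, a core clock activator, was 2.44-fold lower (limma adjusted p = 0.00223). Nr1d1, the REV-ERBα gene, was named after its values were seen because of its known action on mouse Insig2. It read 7.40, 7.35, 6.90 and 6.76 in hydrogen-treated CDAA livers against 5.47, 6.96, 6.47 and 6.10 in control CDAA livers, and the difference of 0.85 ± 0.251 was not called (limma adjusted p = 0.202). With normal chow, 0 of the 14 clock genes passed the hydrogen test, but 3 of them separated the groups without overlap (1 upwards and 2 downwards, against 2.43% and 3.26% of all genes), in the direction seen on the CDAA diet. Dbp averaged 7.37 log2 in hydrogen-treated and 6.09 in control normal-diet livers, a 2.43-fold difference (limma, unadjusted p = 0.000614, adjusted p = 0.224). Nfil3 (−0.49) and Cry1 (−0.18) were the others, with limma adjusted p of 0.6 and 0.633, and the Insig2 difference there was −0.16. The hour at which livers were taken is not given in the labels, and the part of the clock genes in the Insig2 result was not tested.

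**Figure D4:**
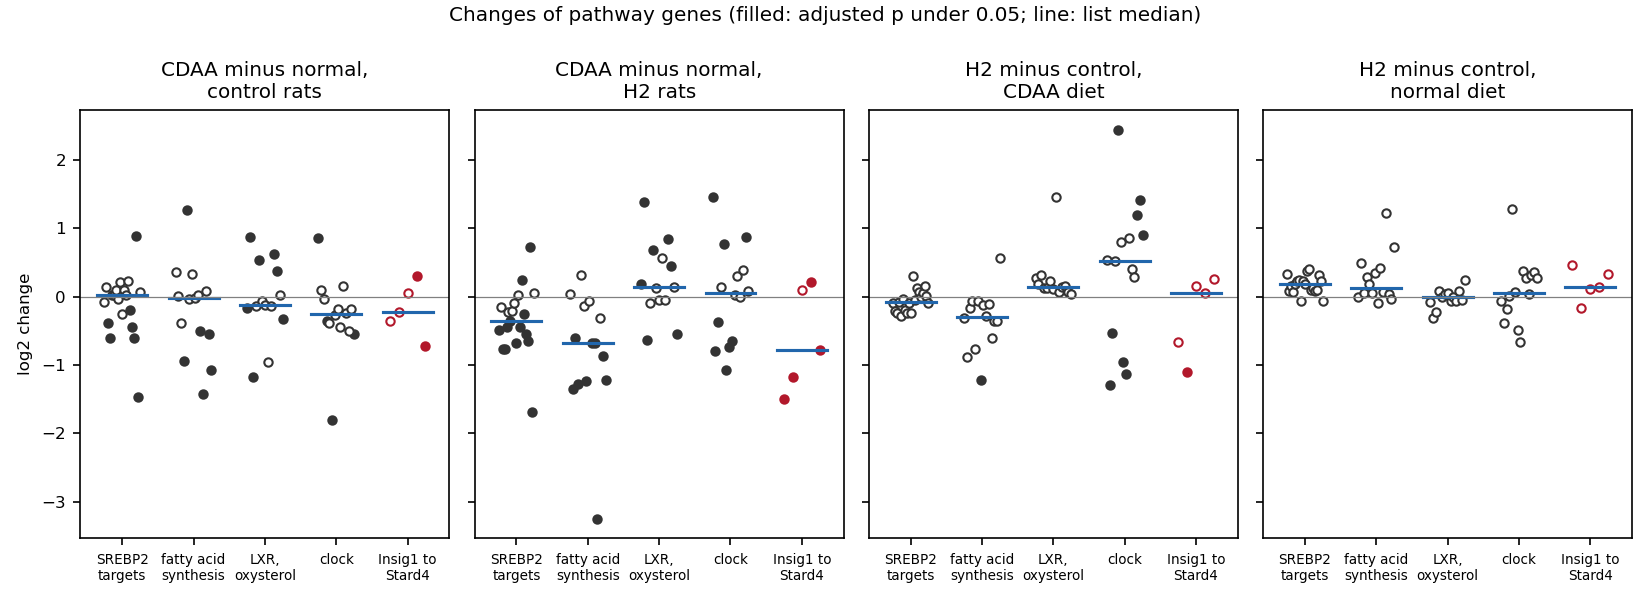
Log2 change of each gene of 4 pathway lists and of the 5 sterol-sensing genes (red) in the 4 group comparisons; filled points have a limma adjusted p under 0.05 and blue lines are list medians. For hydrogen on the CDAA diet the filled points are 8 of 14 clock genes, 1 of 14 genes of the SREBP1c and fatty acid synthesis list, and Insig2.

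To see which genes varied with each of the 5 from rat to rat, deviations from the 4 group means were correlated over the 16 arrays, as a description only, since the values share array and RNA. The genes named are those of highest r among the 11434 genes tested. Picked from so many, r values of this size can arise without any link between the genes. The closest to Insig1 were Grin2b (r = 0.85), Mlxipl (0.809), Cyp51 (0.799), Lss (0.797) and Ebf3 (0.786). Cyp51 and Lss encode enzymes of the later steps of cholesterol synthesis, and Mlxipl encodes the carbohydrate-responsive factor ChREBP. The closest to Insig2 were Zdhhc6 (r = 0.908), Hook1 (0.878), Clpx (0.862), Upk2 (0.856) and G6pc1 (0.849), of which G6pc1 encodes the glucose-releasing phosphatase of liver. None of these neighbours of Insig2 passed the test in the hydrogen comparison on CDAA, in which Insig2 fell. Srebf2 was closest to Map4k1 (r = 0.88), Slc35e4 (0.856) and Dennd4c (0.845), and Scap to the glucagon receptor gene Gcgr (0.978), Gzma (0.932) and Ccrl2 (0.928). Stard4 was closest to the apolipoprotein gene Apom (r = 0.918), Gpr146 (0.894) and Slc17a2 (0.887). Among the 5 genes themselves the highest within-group r was that of Srebf2 and Scap (0.654), followed by Srebf2 and Insig1 (0.507).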

How the data were processed

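The values used are the authors' log2 signals, deposited with 2 decimals for each probe set on each array. The tools named, per the submitters' processing notes, are RMA and Affymetrix Expression Console, without versions. RMA includes quantile normalization, which removes most of any shift of all transcripts in 1 group. Medians of the deposited arrays were 4.33 to 4.37, and a further quantile normalization still changed the balance of diet calls. Per the labels' protocols, liver pieces were kept in RNAlater and RNA was labelled from the 3′ end. Depth has no meaning for arrays, and the number of rats limits the precision.

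Of 31139 probe sets, 97 array controls were left out, and 22634 exceeded the 30th percentile (3.68) on at least 4 arrays and were tested. The groups' means were estimated together from all 16 arrays (limma 3.58.1 with eBayes, R 4.3.3), with Benjamini-Hochberg adjustment over these sets and calls at 0.05. Errors beside log2 changes are standard errors unless SD is stated. The difference of Insig1 and Insig2 was tested by exact permutation (scipy 1.17.1, and numpy 2.4.6 for the interaction, in Python 3.11.15). The script was tested on simulated data.

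Genes took their names from the platform annotation, matched to RefSeq (GRCr8) by Entrez identifier. The 5 genes and all lists were chosen with earlier results of these data known. Besides the 5, most genes were named by rule: up to 4 called genes of smallest adjusted p per list and comparison, and the highest within-group correlations (5 for each INSIG gene, 3 for the others). Abca1, Nfil3, Nr1d1 and the cell type markers Alb, Clec4f and Sox9 were named outside this rule. Alternatives covered the filter, scaling, eBayes options, the arrays fitted, probe sets, a replicate block and leaving out each array. Strip and scan batches are not given in the labels.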

Additional observations from a re-analysis of the deposited data

Results flagged for a closer look

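The effect of hydrogen on Insig1 had opposite signs on the 2 diets. On the CDAA diet the 4 treated livers, at 7.86 to 8.86 log2, overlapped their controls, at 8.61 to 9.47. On the normal diet the 4 treated livers, at 9.32 to 10.39, overlapped theirs, at 9.06 to 9.63. The change was called on neither diet. The difference between the 2 effects was −1.13 ± 0.357, with an unadjusted limma p of 0.0059 and an adjusted p of 0.374. It did not pass the test over all genes, and was −1.33 to −0.92 when any 1 array was left out.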

How the results depend on the processing

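Insig2 on the CDAA diet, Insig1 and Insig2 across the diet under hydrogen, and Stard4 across the diet in both regimes kept their direction and their call under each change of filter, scaling, eBayes option and replicate block, and without any 1 array. Insig2 with hydrogen on the CDAA diet lost its call when that comparison's arrays were fitted alone (−1.10, adjusted p = 0.185), where 2 probe sets passed in place of 71. The dimmest Stard4 set alone gave −0.17 for the diet in control rats. Srebf2 lost its diet calls after a further quantile normalization (0.07 in hydrogen-treated and 0.20 in control rats) and as the mean of its probe sets (0.06 and 0.09), and in hydrogen-treated rats after centring (0.12) and with only that comparison's arrays (0.22). Values that were not called changed sign as follows. Scap gave −0.07, −0.01 and −0.02 for the diet in hydrogen-treated rats (quantile normalization, centring, second probe set) and −0.06, −0.01, −0.01 and −0.06 in control rats (quantile normalization, centring, mean of its sets, second set). It gave −0.02 for hydrogen on the normal diet (second set) and −0.01 and −0.00 for the interaction under the 2 scalings. Stard4 gave −0.21 for hydrogen on the CDAA diet with its second set. Called probe sets for hydrogen on the normal diet numbered 5 with a trended, robust eBayes, 17 with only that comparison's arrays and 1 with the replicate block, against 2.

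With any 1 array left out, the change of Srebf2 on the diet in hydrogen-treated rats was 0.17 to 0.29, and its call ended in 5 of 16 cases. Called probe sets ranged from 21 (without control CDAA replicate 4) to 346 (without control CDAA replicate 2) for hydrogen on the CDAA diet, from 0 to 11 on the normal diet and from 0 to 21 for the interaction. Uncalled values that crossed 0 were the interaction of Scap (−0.04 to 0.10) and of Stard4 (−0.18 to 0.09), and Insig1 minus Insig2 for the diet in control rats (−0.23 to 0.02) and for the interaction (−0.38 to 0.02).

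The replicate numbers of the labels do not pair the rats by any stated link. Same-numbered arrays correlated at −0.129 to 0.325 over 24 pairs, 9 of them above 0.1, and 11 of 16 arrays correlated best with their own number. Whether same-numbered arrays share an unlabelled factor was not tested, and the main fit has no replicate block. A replicate block changed no call of the 5 genes (Insig2 with hydrogen on the CDAA diet −1.10, adjusted p = 0.00413) and left 0 probe sets for the interaction in place of 1. With 4 arrays per group and no batch labels, small changes could not be resolved.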
